A study of Homo sapiens with 18 samples.

Results

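Metallothionein genes and genes of the response to metal were followed in 2 human ovarian cancer cell lines that differ in cisplatin sensitivity. The set held 6 genes chosen by name, namely the metallothioneins MT1E, MT1F, MT1X and MT2A, the transcription factor MTF1 and the zinc exporter SLC30A1. Of the 23622 genes in the RNA-seq count table, 5 were members of this set, and 4 of these were among the 15760 genes that passed the filter on low counts. MT1F had too few reads for that filter, and the RNA of MT1E was not analysed here.

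A2780 is an established ovarian cancer line that is sensitive to cisplatin, and Acis (A2780cis) is a resistant line made from it by long exposure to rising doses of the drug. Acis cells were kept in culture with 1 µM cisplatin at every 3 passages. RNA-seq was done on A2780 control, A2780 cisplatin, Acis control and Acis cisplatin cells, with 3 libraries in each group. Cisplatin groups were exposed to 200 µM for 3 h, and control cells did not receive this dose. Each line is 1 culture lineage, so a difference between A2780 and Acis is a difference between these lines. The RNA-seq replicates were wells of a plate seeded for each condition, so p-values measure the spread between such wells, which may be technical. ATAC-seq, which maps accessible DNA, gave 1 peak list for each of the same 4 conditions, made from 3 replicates for control cells and 2 for cisplatin cells.

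Metallothioneins are small proteins rich in cysteine that bind zinc and copper, and also bind toxic metals such as cadmium. MTF1 is a zinc-sensing transcription factor that binds metal response elements in the promoters of metallothionein genes and of SLC30A1 when free zinc rises. SLC30A1, also called ZnT1, moves zinc out of the cell across the plasma membrane. Platinum drugs react with cysteine thiols, and metallothioneins have long been studied for their binding of cisplatin.

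Library totals were between 4130644 and 5072216 counts. The share of all tested genes called at an adjusted p below 0.05 was large in every comparison, so each count of members is given with that background. Markers of the tissue of origin were sparse. Of 9 epithelial and ovarian carcinoma markers, 4 had a row, and EPCAM had 28 counts over all 12 libraries. Of 4 leukocyte markers, 2 had a row and both failed the filter, and of 3 endothelial markers none had a row. The tested markers differed between the untreated lines in both directions or not at the threshold. KRT18, a keratin, was at 25.5 ± 6.89 normalized counts in A2780 control and 143 ± 9.67 in Acis control, and KRT8, its partner keratin, was at 15.6 ± 4.29 and 4.05 ± 2.47 (SD, n = 3). EPCAM and CD24, which were not tested, had 11 and 20 counts summed over the A2780 control libraries and 2 each in Acis control. Of the mesenchymal markers, COL1A1 and COL1A2, collagen chains, were at 843 ± 57.2 and 787 ± 26.8 in A2780 control, and in Acis control COL1A1 was at 16.4 ± 7.12 and COL1A2 at 0 counts in all 3 libraries, which allows up to 3 counts in each taken alone. VIM, the most abundant of them, was at 2006 ± 86.2 and 1979 ± 17.4 and did not pass the test (edgeR adjusted p = 0.645). FN1, not tested, had 10 counts in A2780 control and 0 in Acis control. The part of these differences in the values below was not tested. In bulk RNA a smaller share of cells with a transcript cannot be told apart from less of it in each cell.

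The promoters of 4 members are shown first, because the metal response element is the sequence through which MTF1 acts on its targets. The sequences are from RefSeq (GRCh38.p14) and run 5′ to 3′ on the strand of the gene over the 250 bases before the annotated start. Capitals mark the core of the metal response element, TGCACNC or TGCGCNC, where it was found on either strand. The regions are chr16:56608334-56608583 for MT2A and chr16:56682220-56682469 for MT1X on the plus strand, and chr1:211579162-211579411 for SLC30A1 and chr1:37859593-37859842 for MTF1 on the minus strand.
MT2A: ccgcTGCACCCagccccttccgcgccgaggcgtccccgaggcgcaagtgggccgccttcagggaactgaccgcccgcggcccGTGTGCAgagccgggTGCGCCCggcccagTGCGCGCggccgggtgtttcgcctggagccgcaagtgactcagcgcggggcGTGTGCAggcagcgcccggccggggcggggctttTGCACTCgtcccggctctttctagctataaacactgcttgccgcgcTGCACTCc
MT1X: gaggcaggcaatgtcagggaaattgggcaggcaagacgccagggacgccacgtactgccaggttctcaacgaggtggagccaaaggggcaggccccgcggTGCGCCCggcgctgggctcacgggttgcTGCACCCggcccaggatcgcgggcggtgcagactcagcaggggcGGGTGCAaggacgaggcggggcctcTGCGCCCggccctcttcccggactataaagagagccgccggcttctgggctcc
SLC30A1: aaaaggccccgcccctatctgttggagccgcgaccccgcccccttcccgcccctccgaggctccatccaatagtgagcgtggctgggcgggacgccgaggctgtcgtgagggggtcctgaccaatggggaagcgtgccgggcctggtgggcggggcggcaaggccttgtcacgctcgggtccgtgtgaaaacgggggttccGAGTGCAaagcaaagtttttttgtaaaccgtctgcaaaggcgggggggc
MTF1: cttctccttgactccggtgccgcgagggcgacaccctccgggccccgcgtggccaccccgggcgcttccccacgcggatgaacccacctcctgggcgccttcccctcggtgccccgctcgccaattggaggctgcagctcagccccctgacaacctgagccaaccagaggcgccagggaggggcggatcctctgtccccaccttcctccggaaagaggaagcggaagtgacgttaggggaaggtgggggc

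MT2A held 7 cores and MT1X held 4 in this window, SLC30A1 held 1, and none of these letters was found in the window of MTF1. The same search over 35116 RefSeq promoters of this length found at least 1 core in 24.8% of them, at least 4 in 0.370% and at least 7 in 0.0313%. Counted from the start, with negative positions upstream, the 7 cores of MT2A were spread from -246 to -2. The 4 cores of MT1X lay between -150 and -47, and the single core of SLC30A1 lay at -49 to -43 on the opposite strand. The letters TATAAA, a core of the TATA box, were found on the sense strand in MT2A and MT1X and in 6.80% of all promoters, and not in the other two. The letters GGGCGG, which occur in binding sites of Sp1, were found on either strand 6 times in SLC30A1, 2 times in MT2A and in MT1X, and 1 time in MTF1. In MT1X the last 2 letters of a GGGCGG match were also the first of a core, and no other match shared letters with a core. At least 6 such matches occurred in 2.22% of all promoters, at least 2 in 24.3% and at least 1 in 42.6%. These matches describe the letters of the window and do not show binding.

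SLC30A1, the exporter (ENSG00000170385, chr1:211571568-211579161, hg38), was the most abundant member. Normalized counts, which are counts scaled to a common library size, were 517, 548 and 526 in A2780 control and 786, 795 and 840 in A2780 cisplatin. In Acis control they were 825, 898 and 818, and in Acis cisplatin 1033, 1082 and 1013. All treated libraries were above all control libraries of the same line, and Acis control was already above A2780 control. A2780 cisplatin and Acis control overlapped. Normalized counts are relative to the other RNA of a library, so a rise or fall in them is not shown to be a change per cell.

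Cisplatin raised SLC30A1 in A2780 1.52-fold (95% interval 1.42 to 1.63, edgeR quasi-likelihood test, adjusted p = 5.04e-11). In Acis the rise was 1.23-fold (1.16 to 1.31, edgeR adjusted p = 5.76e-06). Before treatment SLC30A1 was 1.60-fold higher in Acis than in A2780 (1.49 to 1.71, edgeR adjusted p = 1.43e-12), and after cisplatin 1.29-fold higher (1.22 to 1.37, edgeR adjusted p = 1.29e-08). The cisplatin effect on the log2 scale was smaller in Acis than in A2780 by 0.31 (SE 0.06), that is, Acis minus A2780 was -0.31 with an edgeR adjusted p of 0.00111 for the interaction of line and treatment. The A2780 control libraries enter both the cisplatin effect in A2780 and the difference between untreated lines, so these values are not independent.

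MTF1, the zinc sensor (ENSG00000188786, chr1:37809574-37859592, hg38), moved the other way in A2780. Its normalized counts were 405, 385 and 434 in A2780 control and 319, 291 and 320 in A2780 cisplatin. They were 509, 481 and 514 in Acis control and 473, 447 and 482 in Acis cisplatin. The treated A2780 libraries were the lowest of the 12 and did not overlap with their controls, whereas the 2 Acis groups overlapped.

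MTF1 fell to 0.761 of its control level in A2780 (95% interval 0.699 to 0.829, edgeR adjusted p = 4.31e-06). In Acis the ratio of cisplatin to control was 0.932 (0.864 to 1.01, edgeR adjusted p = 0.199), which did not pass the test. MTF1 was 1.23-fold higher in Acis than in A2780 without treatment (1.14 to 1.33, edgeR adjusted p = 3.47e-05) and 1.51-fold higher with it (1.39 to 1.64, edgeR adjusted p = 9.35e-10). The cisplatin effect differed between lines by 0.29 on the log2 scale (SE 0.08, Acis minus A2780, edgeR adjusted p = 0.0110). By DESeq2 this difference was 0.28 with an adjusted p of 0.0958, so the call depended on the tool.

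**Figure D1:**
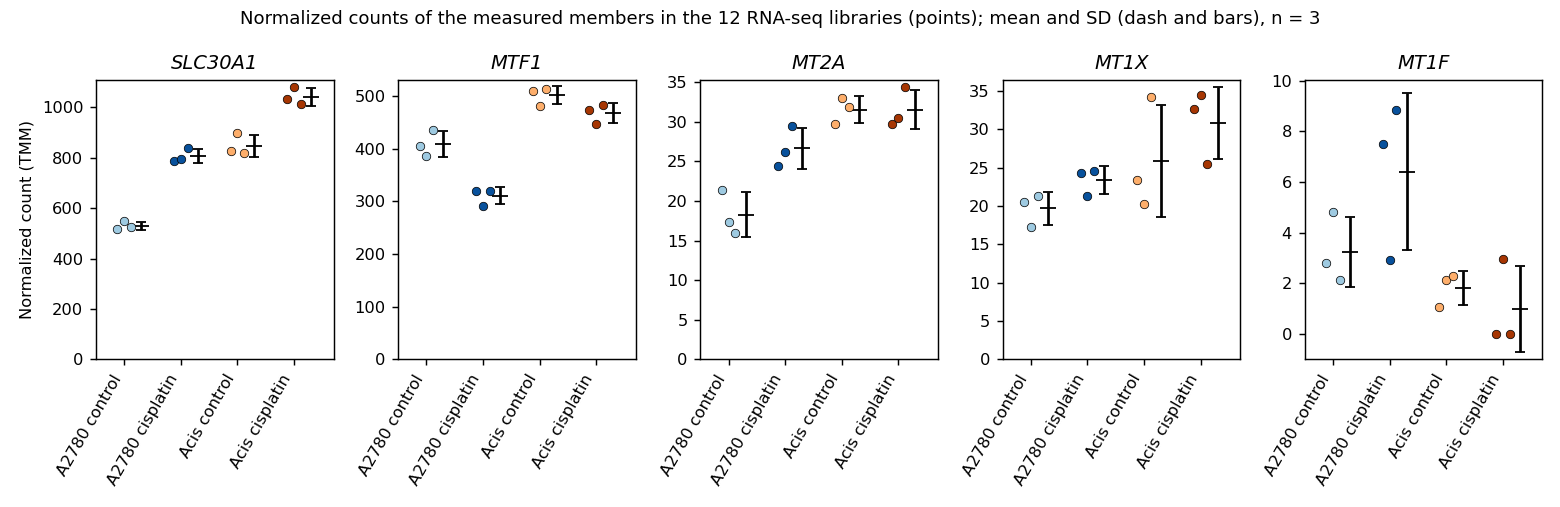
Normalized counts (y axis, 0 at the base line of every panel but MT1F, whose axis reaches below 0 to hold the error bar) of the 5 members with a row in the count table, in 4 groups of 3 RNA-seq libraries (x axis). Points are libraries, and the dash and bars beside them are the mean and SD. SLC30A1 rises from 530 in A2780 control to 1043 in Acis cisplatin, MTF1 is lowest in A2780 cisplatin at 310, and the metallothioneins stay below 35 in every library.

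MT2A, the main metallothionein of most human cells (ENSG00000125148, chr16:56608584-56609497, hg38), was measured at low counts. Its normalized counts were 21.4, 17.3 and 16 in A2780 control and 24.4, 26.1 and 29.5 in A2780 cisplatin. They were 29.7, 33.0 and 31.9 in Acis control and 29.7, 30.5 and 34.4 in Acis cisplatin. The 3 A2780 control libraries were the lowest of the 12, and the 2 Acis groups overlapped. These rest on 56, 83, 87 and 97 counts summed over the 3 libraries of each group, in the same order.

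MT2A was 1.71-fold higher in Acis control than in A2780 control (95% interval 1.29 to 2.29, edgeR adjusted p = 0.00305). Cisplatin gave a ratio of 1.45 in A2780 (1.08 to 1.94, edgeR adjusted p = 0.0593), just outside the threshold although the libraries did not overlap. Counting error alone gives 95% Poisson intervals that overlap, 42.3 to 72.7 for the summed counts of A2780 control and 66.1 to 103 for A2780 cisplatin. The interval of Acis control, 69.7 to 107, also overlapped that of A2780 control. The intervals of ratios and the SE use a fitted spread that lies below counting error at such counts. For MT2A they are therefore too narrow. In Acis the ratio was 1.00 (0.779 to 1.28, edgeR adjusted p = 1.0). The difference between lines in the cisplatin effect was -0.53 on the log2 scale (SE 0.27, Acis minus A2780, edgeR adjusted p = 0.265) and did not pass the test, so a different response of MT2A in the 2 lines was not detectable at this depth. Under cisplatin the ratio of Acis to A2780 was 1.18 (0.920 to 1.52, edgeR adjusted p = 0.327). With total counts in place of TMM scaling the cisplatin effect of MT2A in A2780 passed the threshold, at 0.65 on the log2 scale with an edgeR adjusted p of 0.0180, and without A2780 control replicate 1 it did so at 0.66 with 0.0474.

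MT1X, an inducible metallothionein of the same cluster (ENSG00000187193, chr16:56682470-56684196, hg38), did not pass the test in any of the 5 comparisons. A2780 libraries had 20.5, 17.3 and 21.3 normalized counts without and 24.4, 21.3 and 24.5 with cisplatin. Acis libraries had 23.3, 20.2 and 34.2 without and 32.6, 34.4 and 25.5 with it. The highest Acis control library was well above the other two of its group. The ratio of cisplatin to control was 1.19 in A2780 (95% interval 0.859 to 1.65, edgeR adjusted p = 0.423) and 1.20 in Acis (0.896 to 1.61, edgeR adjusted p = 0.463), and these intervals allow anything from a small fall to a rise of more than 1.6-fold. The ratio of Acis to A2780 was 1.31 without cisplatin (0.943 to 1.81, edgeR adjusted p = 0.182) and 1.32 with it (0.987 to 1.76, edgeR adjusted p = 0.108). As for MT2A, these intervals are narrower than counting error alone would give. Reads of MT1X were partly ambiguous. Of the 330 windows of 75 bases in its main transcript, 36.1% were also found elsewhere in the genome or transcriptome, among others in MT1G and in the pseudogene MT1XP1, which had 71 counts of its own over the 12 libraries. For MT2A, MT1F and SLC30A1 no such window was found elsewhere, and for MTF1 0.750% were.

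MT1F (ENSG00000198417, chr16:56657731-56660698, hg38) was close to the limit of detection, with 38 counts in all. Raw counts of A2780 libraries were 3, 5 and 2 without and 8, 3 and 9 with cisplatin, and those of Acis libraries 1, 2 and 2 without and 0, 3 and 0 with it. A count of 0 allows up to 3 counts in a library. The groups overlapped in each of the 4 pairwise comparisons. Two-sided exact permutation tests of the normalized counts gave p = 0.2 for cisplatin in A2780, p = 0.4 in Acis, p = 0.2 between untreated lines and p = 0.2 between treated lines, where 3 libraries against 3 cannot go below 0.1. The summed counts under cisplatin were 20 in A2780 (95% Poisson interval 12.2 to 30.9) and 3 in Acis (0.619 to 8.77), intervals that cover counting error only. When genes of low count were kept in the fit, this one difference passed the test, with an edgeR adjusted p of 0.00375 and a DESeq2 adjusted p of 0.0360.

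SLC30A1 was the highest and MT1F the lowest member in all 4 groups per base of the main transcript and of all annotated exons. The order of MTF1, MT2A and MT1X between them depended on the length used. No correction was made for the 36.1% of MT1X windows found elsewhere, so the values of MT1X may be too low. In RPKM, reads scaled by library size and by the length of the main transcript, A2780 control and A2780 cisplatin had 19.7 ± 0.596 and 30.0 ± 1.07 for SLC30A1, and Acis had 31.4 ± 1.65 without and 38.7 ± 1.30 with cisplatin (SD, n = 3). MTF1 was at 11.2 ± 0.677, 8.54 ± 0.448, 13.8 ± 0.487 and 12.9 ± 0.505 in the same order. MT2A was at 9.95 ± 1.55, 14.5 ± 1.41, 17.2 ± 0.913 and 17.2 ± 1.35, and MT1X at 10.7 ± 1.2, 12.7 ± 0.992, 14 ± 3.96 and 16.7 ± 2.55. The error bars of MT2A and MT1X overlapped in every group, and those of MTF1 and MT1X overlapped in the controls of both lines, as did those of MTF1 and MT2A in A2780 control. On this scale MTF1 was above MT2A and MT1X in A2780 control and below them in the other groups. MT1F was between 0.506 and 3.30. With the union of all annotated exons as length, MTF1 was above both in all 4 groups, at 11.2, 8.49, 13.7 and 12.8, with MT2A at 4.37, 6.38, 7.55 and 7.55 and MT1X at 2.50, 2.96, 3.28 and 3.91.

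**Figure D2:**
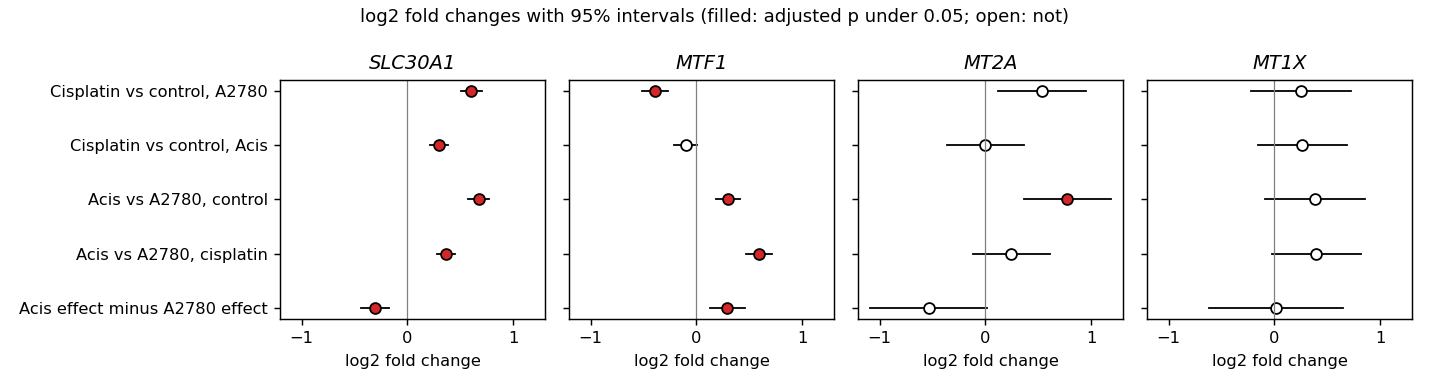
log2 fold changes (x axis) of the 4 tested members in the 5 comparisons (y axis), from edgeR. Points are estimates with 95% intervals as lines, filled where the adjusted p was below 0.05. SLC30A1 and MTF1 have narrow intervals on opposite sides of 0 for cisplatin in A2780 (0.61 and -0.39), and the intervals of MT2A and MT1X are several times wider.

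Counted over the 4 tested members, 2 were called for cisplatin in A2780, where SLC30A1 rose and MTF1 fell, against 49.5% of all tested genes (21.2% higher and 28.2% lower). In Acis 1 was called, SLC30A1, against 21.8% of all genes (9.35% higher and 12.4% lower). Between untreated lines 3 were called, all higher in Acis, against 58.9% of all genes (28.2% higher and 30.6% lower in Acis), and between treated lines 2 were called, both higher in Acis, against 63.0% (31.8% higher and 31.2% lower). For the interaction 2 were called, SLC30A1 with a lower and MTF1 with a higher effect in Acis, against 18.9% (5.48% lower and 13.4% higher). With 4 members these counts are small. No tested member reached the 2-fold change (a log2 fold change of 1) used as a threshold by the study, which 5.62% of genes passed in A2780, 2.01% in Acis, 19.1% between untreated lines, 19.2% between treated lines and 1.36% for the interaction. The balance of higher and lower calls depended on scaling. Of the calls, 42.9% were higher for cisplatin in either line and 71.0% were higher for the interaction. With total counts in place of TMM these shares were 63.4% and 62.4% for cisplatin in A2780 and Acis, and 48.2% for the interaction, as the median gene in A2780 then shifted from -0.01 to 0.10 on the log2 scale. SLC30A1 and MTF1 kept their directions and calls under that scaling.

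Gene length moved with the cisplatin effect in A2780. SLC30A1 spans 7594 bp, and of the 1603 tested genes that span 5000 to 10000 bp, 49.2% were called higher and 5.12% lower in A2780, with a median log2 fold change of 0.22. MTF1 spans 50019 bp, and of the 1615 genes that span 40000 to 60000 bp, 5.94% were called higher and 40.9% lower, with a median of -0.13. The metallothioneins MT2A and MT1X span 914 and 1727 bp, and 1419 genes of 500 to 2000 bp had a median of 0.15. The changes of SLC30A1 (0.61) and MTF1 (-0.39) had the sign of their length class and were larger than its median. In the interaction the class of SLC30A1 had a median of -0.13 and that of MTF1 a median of 0.12, again with the sign of the member. The part of length in the change of a single gene was not tested.

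Genes whose promoters hold several metal response element cores, as those of MT2A and MT1X do, were called in both directions. Of 73 tested genes with at least 4 cores in the 250 bases before the start, 14 were called higher in A2780 (19.2%) and 19 lower (26.0%). Of all 10436 tested genes with a promoter sequence, 21.4% were higher and 33.0% lower. In Acis 3 of the 73 were higher and 10 lower, against 9.38% and 14.7% of the 10436.

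ATAC-seq placed a peak over the start of 4 of the 6 members in all 4 conditions. Fold enrichment, the height of a peak over its local background, at the start of MT2A was 15.4 in control and 10.7 in cisplatin cells of A2780, and 14.8 in control and 18.9 in cisplatin cells of Acis. At MT1X the values were 19.8, 11.8, 16.5 and 16.6 in that order. At SLC30A1, which had the highest peaks of the members, they were 22.6, 15.9, 22.7 and 25.7, and at MTF1 17.9, 15, 19.7 and 20.8. All of these members had their lowest value in A2780 cisplatin. The median over the starts of all tested genes with a peak was also lowest there, at 12.8, against 15.5 in A2780 control, 17.8 in Acis control and 16.9 in Acis cisplatin. With 1 list a condition there is no replicate check of these values.

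MT1F had a peak over its start with a fold enrichment of 11.9 and 6.67 in the A2780 lists (control and cisplatin) and of 11.3 in the Acis control list. In Acis cisplatin a peak (chr16:56657430-56657901, fold enrichment 10.3) ended before the start of its main transcript at position 56657959, though it covered the first base of the gene as annotated, 56657731. MT1E had no peak within 1000 bases of its start in any condition. A start without a listed peak was common. Only 60.8%, 56.2%, 55.4% and 55.4% of the tested genes had a listed peak over their start, in the order of conditions used for MT2A. All 7 cores of MT2A, all 4 of MT1X and the 1 of SLC30A1 lay inside the peaks of all 4 conditions. The summits lay from -23 to -1 at MT2A, from -198 to -170 at MT1X, from -125 to -77 at SLC30A1 and from -98 to -57 at MTF1.

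**Figure D3:**
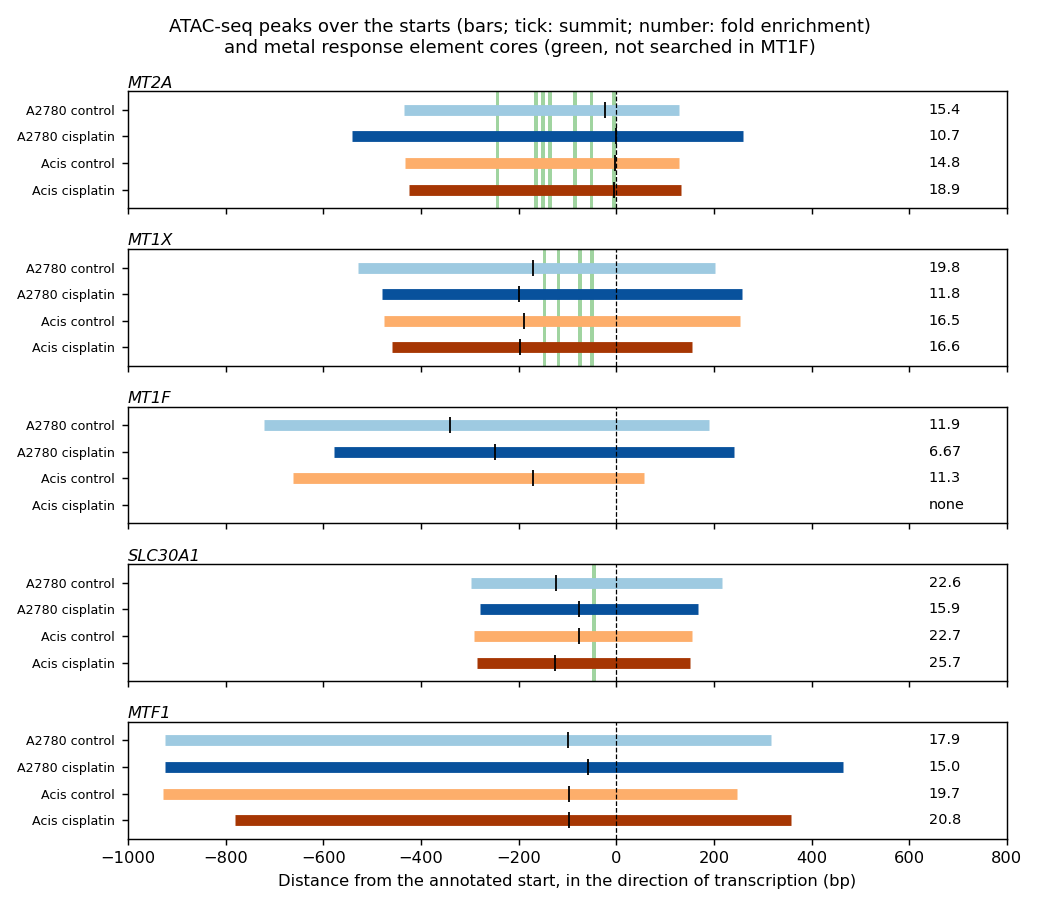
ATAC-seq peaks (bars) over the starts of 5 members, by distance from the start in bp along the gene (x axis) in 4 conditions (y axis). Ticks mark summits, the numbers at the right are fold enrichments, and green bands are metal response element cores, which were not searched for MT1F. The cores of MT2A, MT1X and SLC30A1 lie inside the bars of every condition, and MT1F has no bar over its start in Acis cisplatin.

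The metallothionein cluster of chromosome 16 (chr16:56565073-56684196, hg38, 119124 bp) held 5 peaks in each A2780 list, 4 in the Acis control list and 3 in the Acis cisplatin list. Those at MT2A, MT1X and MT1F were in all 4 lists. MT1A had a peak over its start in A2780 control (8.20) and A2780 cisplatin (4.88) and in neither Acis list. The lists differed in their total number of peaks, 34979 and 32159 for A2780 control and cisplatin and 24485 and 27321 for Acis control and cisplatin, and the part of this in a peak listed for only some conditions was not tested. Of 15 listed metallothionein genes and related loci, 3 had a row in the count table (MT2A, MT1X and MT1F), and MT2A was the only one called in any comparison at the filter used. The pseudogenes MT1XP1 and MT1P1, which were not in this list, also had rows, with 71 and 15 counts, and failed the filter.

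SLC30A1 was 1 of 8 tested genes listed as zinc exporters, the ZnT family, most of which carry zinc out of the cytosol into organelles or out of the cell. In A2780, cisplatin raised SLC30A1 and no other, and 4 fell, where 21.2% of all tested genes were higher and 28.2% lower. SLC30A1 has the shortest span of the 8, 7594 bp, and the 4 that fell span 37079 to 99960 bp. Of tested genes that span 5000 to 10000 bp 49.2% were higher in A2780, and of those that span 40000 to 60000 bp 40.9% were lower. The part of span in the difference between SLC30A1 and the other exporters was not tested. SLC30A6 fell to 0.659 of control (edgeR adjusted p = 5.20e-08) and SLC30A7 to 0.687 (edgeR adjusted p = 3.41e-08), both transporters of the secretory pathway, SLC30A5 fell to 0.791, and SLC30A9 fell as well. The median log2 fold change of the 8 was -0.23, against -0.01 for all tested genes. In Acis SLC30A1 was the only one of the 8 that was called (9.35% of all genes higher, 12.4% lower), and with total counts as library size SLC30A4 and SLC30A9 were called higher too. The interaction had 5 exporters with a higher effect in Acis (SLC30A4, SLC30A5, SLC30A6, SLC30A7 and SLC30A9) and 1 with a lower effect, SLC30A1, where 13.4% of all genes had a higher and 5.48% a lower effect. The median of the 8 was 0.42 there, against 0.03 for all tested genes. SLC30A4 lost its call there with DESeq2, with total counts and with the closest replicates merged. Between untreated lines SLC30A1 and SLC30A3 were higher in Acis and SLC30A6, SLC30A7 and SLC30A8 lower (28.2% of all genes higher, 30.6% lower). SLC30A8 had 281 counts in A2780 control and 2 in Acis control, summed over 3 libraries. Between treated lines 5 of the 8 were higher in Acis and 1 lower (31.8% of all genes higher, 31.2% lower).

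Zinc importers of the ZIP family, which bring zinc into the cytosol, had 10 tested genes. In A2780, cisplatin raised SLC39A1 1.87-fold (edgeR adjusted p = 0.000215) and SLC39A7 1.16-fold, and 4 fell, led by SLC39A10 at 0.702 of control (edgeR adjusted p = 5.25e-08), against 21.2% higher and 28.2% lower of all tested genes. The median log2 fold change of the 10 was -0.04, against -0.01 for all tested genes. SLC39A1 and SLC39A7 span 9086 and 4135 bp, and the 4 that fell span 20855 to 161726 bp. SLC39A3, SLC39A4 and SLC39A13, which span 7103 to 9365 bp, were not called. The part of span was not tested here either. With total counts as library size 5 were called higher and 2 lower. In Acis, where 9.35% of all genes were higher and 12.4% lower, SLC39A14 alone was called, at 0.926 of control (edgeR adjusted p = 0.0225). It lost the call with total counts and with the closest replicates merged. Between untreated lines 7 of the 10 were higher in Acis and 2 lower, with SLC39A4 3.14-fold (edgeR adjusted p = 2.79e-14) and SLC39A11 2.2-fold higher (edgeR adjusted p = 3.03e-11). Of all tested genes 28.2% were higher and 30.6% lower there, and the median log2 fold change of the 10 was 0.23, against -0.01 for all tested genes. Between treated lines 7 were higher and 1 lower, against 31.8% and 31.2% of all genes, with a median of 0.28 against -0.00109. For the interaction 2 importers had a higher and 1 a lower effect in Acis (13.4% and 5.48% of all genes).

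Genes known to be induced by metals and electrophiles had 11 tested members, and 6 rose and 1 fell with cisplatin in A2780, where 21.2% of all tested genes were higher and 28.2% lower. The median log2 fold change of the 11 was 0.21, against -0.01 for all tested genes. OSGIN1, an oxidative stress gene, rose 2.33-fold (edgeR adjusted p = 3.68e-05), and HMOX1, the heme oxygenase that cadmium induces strongly, rose 1.34-fold (edgeR adjusted p = 3.76e-06). The study had picked OSGIN1 from these data for its rise with cisplatin in A2780 and its higher level in untreated Acis. The values of OSGIN1 in those comparisons are therefore not independent of that choice. HSPA1B, a heat shock gene, rose 1.48-fold, and DNAJB1, FTH1 and FTL rose as well. SLC7A11, the cystine importer, fell to 0.756 of control (edgeR adjusted p = 8.30e-08). HSPA1B has a near-identical copy in HSPA1A, and FTH1 and FTL have pseudogenes, so the calls of these 3 are uncertain. In Acis 3 rose, OSGIN1 1.41-fold (edgeR adjusted p = 2.80e-05), HSPA1B 1.23-fold and DNAJB1 1.13-fold, against 9.35% of all genes, none fell, and the median of the 11 was 0.18 against 0.01. HSPA1B was not called there by DESeq2. Between untreated lines 5 were higher in Acis and 3 lower, against 28.2% and 30.6% of all genes, with a median of 0.09. OSGIN1 was at 13.1 ± 1.18 normalized counts in A2780 control and 142 ± 10.5 in Acis control, SLC7A11 was at 559 ± 3.36 and 203 ± 4.14 (SD, n = 3), and HMOX1 in Acis was at 0.520 of its A2780 level (edgeR adjusted p = 1.37e-10). Between treated lines 4 were higher in Acis and 5 lower, against 31.8% and 31.2% of all genes, with a median of -0.05. For the interaction 1 gene, SLC7A11, was called higher and 3 lower (13.4% and 5.48% of all genes), and DESeq2 and the merged replicates left none of the 3.

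**Figure D4:**
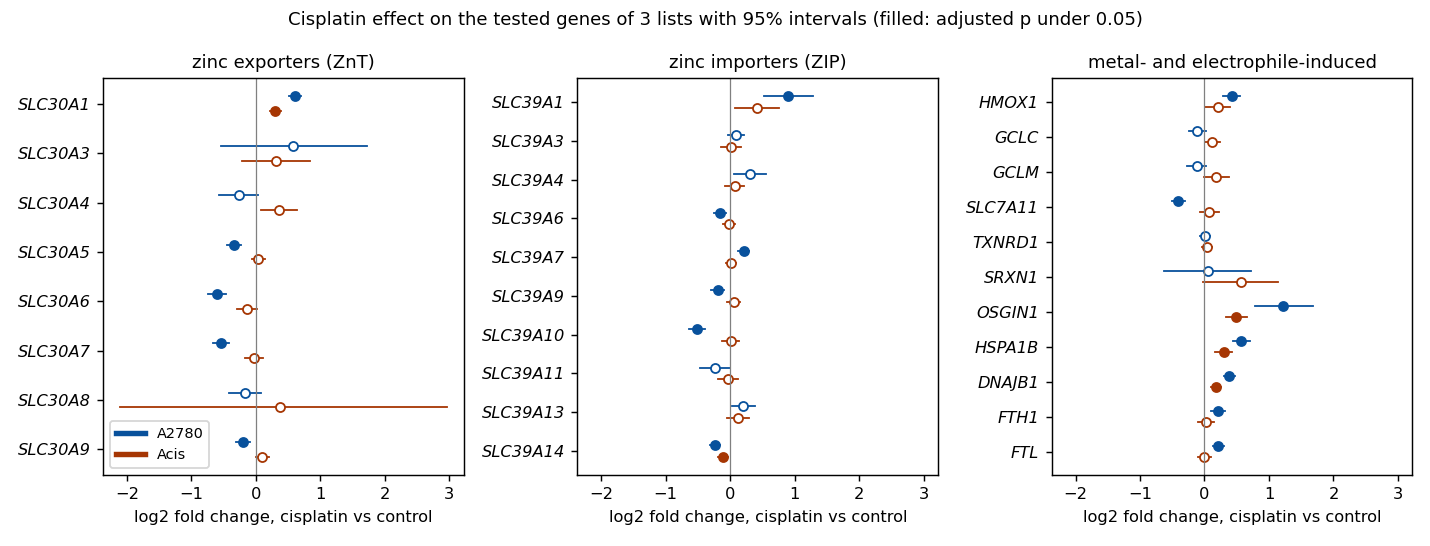
log2 fold change of cisplatin against control (x axis) for the tested zinc exporters, zinc importers and metal- and electrophile-induced genes (y axis), in A2780 (blue) and Acis (brown). Points are edgeR estimates with 95% intervals, filled where the adjusted p was below 0.05. SLC30A1 is the only exporter to the right of 0 with a filled point in either line, and most points of Acis are open.

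The genes whose normalized counts followed those of SLC30A1 most closely over the 12 libraries were EGR3 (r = 0.987) and ARC (0.984), both immediate early genes, followed by IRF2BPL, TRIB1 and IRF2BP2. ARC rose over the same order of groups, from 51.7 normalized counts in A2780 control to 220 after cisplatin, and from 297 to 493 in Acis. Like OSGIN1, ARC had been picked by the study from these data for its rise in A2780 and its level in untreated Acis. Its pattern is therefore not independent of that choice. For MTF1 the closest genes were NIN (0.986), MANBA, AFF1, DCAF7 and CRACD, with NIN at 1188, 888, 1600 and 1408 in the same order of groups. For MT2A they were RPS27A (0.965), EMC3, MKRN2, C1orf109 and TNFRSF12A. These are Pearson correlations of log2 values over libraries that fall in 4 groups, chosen as the highest of 10886 genes, and they describe the pattern of group means.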

How the data were processed

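Raw read counts per gene were deposited by the authors for 12 RNA-seq libraries. Per the labels and the study's methods, stranded libraries depleted of ribosomal RNA were read single-end for 75 bases, aligned with STAR 2.7.3 to hg38, freed of duplicates with Picard and counted with HTSeq 0.11.1 by strand. Removing duplicates of single-end reads caps the count a short gene can reach, and the members had at most 0.186 counts per exon base in a library. FTL, of the metal-induced list, reached 0.688 in A2780 cisplatin, so its ratios may be held down more by this cap. All listed genes had at least 10 counts over the libraries. ATAC-seq peak lists deposited by the authors (cutadapt 1.15, Bowtie2 2.4.1, MACS2) hold the fold enrichment of each peak and its −log10 q-value, and were merged over replicates, so they carry no spread. The XR-seq samples were not analysed here.

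Counts were tested with edgeR 4.0.16 (R 4.3.3) by the quasi-likelihood test after filterByExpr and TMM scaling (factors 0.965 to 1.05), with 4 group means over 12 libraries, and p-values were adjusted by Benjamini-Hochberg over 15760 genes. A call is an adjusted p below 0.05. DESeq2 1.42.0, other scaling, no filter, a replicate block, a correction for occupied read start positions, libraries left out one at a time and, chosen after seeing the data, merging the 2 closest replicates of each group were alternatives. The script was tested on simulated data. Intervals are 95%. In 6 of 12 replicate pairs counts differed by less than counting noise (variance ratios 0.747 to 1.51 over all pairs), and these were kept as separate samples. Coordinates and lengths are from GENCODE 44. Named genes were all members, the other metallothioneins, zinc transporters and metal-induced genes of fixed lists (the largest changes, at most 4 called genes a comparison, beside counts), and the 5 genes most like a member with a mean of at least 50 normalized counts (log2 of the value plus 1). Members and lists were chosen with earlier results of these data known. The exact permutation test was used for MT1F alone.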

Additional observations from a re-analysis of the deposited data

Results flagged for a closer look

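Cisplatin effects on 2 members differed between the lines by the interaction term of the edgeR fit over all genes. SLC30A1 rose in both lines, by 0.61 on the log2 scale in A2780 and by 0.30 in Acis, a difference of -0.308 (Acis minus A2780, edgeR adjusted p = 0.00111). MTF1 fell by 0.39 in A2780 and was at -0.10 in Acis, a difference of 0.292 (edgeR adjusted p = 0.0110). For SLC30A1 all 3 treated libraries were above all 3 controls in each line. For MTF1 this separation, downward, was seen in A2780 alone. Over all tested genes 18.9% were called for this difference.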

How the results depend on the processing

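Calls of SLC30A1 held in every comparison and under all 19 alternatives, and those of MTF1 in all but 1. With DESeq2 the interaction of MTF1 was 0.28 (adjusted p = 0.0958), which left 1 member called for the interaction in place of 2. DESeq2 and the fit without the low-count filter each called 1 member at a 2-fold change between treated lines in place of 0. This is MT1F, with fitted log2 changes of -2.73 and -2.56. They rest on 20 counts in A2780 cisplatin and 3 in Acis cisplatin, summed over the libraries. The cisplatin effect of MT2A in A2780 passed with total counts (0.65) and without A2780 control replicate 1 (0.66). Its range over single libraries left out was 0.45 to 0.66. Near-zero effects changed sign: MT2A in Acis, with 0.054 for total counts, 0.0107 for occupied start positions and 0.0322 for merged replicates, and -0.0663 to 0.0401 over single libraries left out; and the interaction of MT1X (0.01), with -0.0058 by DESeq2, -0.0055 with DESeq2 size factors, -0.0497 with total counts and -0.0257 with merged replicates, and -0.138 to 0.255 over single libraries left out. The cause of these shifts was not tested. Counts of all genes called fell by more than 1.5 times with DESeq2 in Acis (2081 against 3436) and for the interaction (1384 against 2976), and with merged replicates for the interaction (1882). At a 2-fold change DESeq2 called 180 against 317 in Acis and 70 against 214 for the interaction, merged replicates 131 for the interaction, and the fit without a filter 1699 against 885 in A2780 and 4670 against 3031 between treated lines. Replicate numbers did not pair the libraries (correlations of deviations from -0.176 to 0.246); with the replicate block the effect of MTF1 in A2780 was -0.39 and SLC30A1 0.61, and no call of a member changed. The count of members with a peak, 5 in 3 of the lists and 4 in Acis cisplatin, moved by at most 1 with only the 20000 strongest peaks, a 1000-base distance or summits within 250 bases, each time through MT1F. Depth limits the metallothioneins, which had 323, 299 and 38 counts in all for MT2A, MT1X and MT1F.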
